A study of Mus musculus with 9 samples.

Results

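Solute carrier family 25 is the largest family of transport proteins in the inner mitochondrial membrane. Its members were taken as the rows of the deposited count table whose gene symbol is Slc25a followed by a number and whose counts summed to at least 10 over all libraries. The table has 47 such rows. Of these, 3 were left out by name and are not analysed here, and 6 had fewer than 10 counts, which left 38 members among the 55401 genes of the table. All 38 also passed the filter on low counts and were tested, among 12660 genes in all.

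Most family 25 proteins are built from repeats of one motif and exchange one solute of the mitochondrial matrix for another from the cytosol, so that ATP, phosphate, citrate, amino acids, nucleotides and coenzymes can cross a membrane that is otherwise closed to them. In liver these carriers join mitochondrial fuel oxidation to fatty acid synthesis, glucose production, the disposal of nitrogen and haem synthesis. A few members sit elsewhere, such as Slc25a17 in the peroxisomal membrane and Slc25a46 in the outer mitochondrial membrane.

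Frozen left-lobe liver tissue of male mice gave RNA that was sequenced with a kit that reads the 3′ ends of polyadenylated transcripts, in 3 groups of 3 libraries. Chow mice received neither streptozotocin nor inhibitor. STAM mice were given 200 µg of streptozotocin under the skin at 2 days of age, which damages the insulin-producing cells, and a high-fat diet from 4 weeks of age for 4 weeks. STAM + Atglistatin mice had the same injection and diet, with Atglistatin mixed into the food; this compound inhibits adipose triglyceride lipase. The labels name no strain, and the injection and the high-fat diet were always given together, so their effects cannot be told apart. Groups follow the sample titles and the series' design text; the treatment field of the chow and STAM samples says otherwise and was not used.

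Library totals ran from 7.41 to 9.91 in units of 1e6 counts, with a mean of 8.85. Transcripts encoded on mitochondrial DNA made up 7.98 ± 0.738% of counts in chow, 11.2 ± 0.303% in STAM and 9.04 ± 0.600% with the inhibitor (SD, n = 3 each). The exact two-sided permutation p was 0.1 for STAM against chow and for STAM + Atglistatin against STAM, the smallest that 3 against 3 allows, and 0.3 for STAM + Atglistatin against chow. The summed level of 6 hepatocyte markers, most of it albumin RNA, was 89121 to 101179 CPM in chow, 47451 to 57317 in STAM and 68889 to 70255 in STAM + Atglistatin, where CPM is counts per 1e6 after TMM scaling. By edgeR, 3 of the 6 fell in STAM against chow and 4 in STAM + Atglistatin against chow; between the STAM groups 1 was higher with the inhibitor (Alb) and 1 lower (Serpina1c), with a median log2 fold change of -0.031. Among the chow libraries, replicate 7 differed from the rest: the summed level of 5 proliferation markers was 71.3 CPM there against 7.94 and 13.7, and that of 6 stellate cell markers was 702 CPM against 409 and 441. What part these differences have in the results that follow was not tested. In whole liver, fewer cells of a type and less RNA per cell cannot be told apart.

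Of 38 members, 3 were called in STAM liver and 2 in STAM + Atglistatin liver, each against chow. Over all tested genes, 1.95% were called higher and 1.99% lower in the first comparison, and 2.1% and 1.97% in the second. Between the inhibitor and STAM alone no carrier passed edgeR's test, although Slc25a37 passed there in 5 of 15 alternative settings and Slc25a1 in 1. The citrate carrier gene Slc25a1 fell in STAM, a call that held in all 15 settings. The folate and FAD carrier gene Slc25a32 and the liver carrier gene Slc25a47 rose in STAM. These calls held in 7 and 11 of 15 settings, and both were lost when any single STAM library was left out. With the inhibitor, Slc25a47 (a call held in 6 of 15 settings) and the mitochondrial iron importer gene Slc25a37 (in all 15) were above chow. Slc25a32 was also higher there, by 0.59 on the log2 scale beside 0.64 in STAM, but did not pass (edgeR adjusted p = 0.0664). Passing means an edgeR quasi-likelihood p under 0.05 after Benjamini-Hochberg adjustment over all 12660 genes, and fold changes are given on the log2 scale ± SE.

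In STAM against chow, 2 of 38 members were called higher and 1 lower, where 1.95% of all tested genes were called higher and 1.99% lower. At an unadjusted p under 0.05 they were 9 and 2 of 38, beside 7.24% and 7.31% of all genes. The members' median log2 fold change was 0.15, beside -0.0013 over all tested genes, and 28 members lay within 0.5 of 0 on that scale. Taken without sign, the median log2 fold change was 0.35 for members and 0.25 over all tested genes. In STAM + Atglistatin against chow, 2 of 38 members were called higher and 0 lower, beside 2.1% and 1.97% of all genes. The member median was 0.037 beside -0.0042. The counts at an unadjusted p under 0.05 were 8 and 1 of 38, beside 7.46% and 7.36% of all genes. Each pair of the 3 comparisons shares a group of libraries. In STAM + Atglistatin against STAM, 0 members were called by edgeR, beside 1.04% of all genes higher and 0.742% lower. In that comparison 4 of 38 members were higher and 5 lower at an unadjusted p under 0.05, beside 5.09% and 5.06% of all genes. There DESeq2 and limma-voom each called 1 member, Slc25a37. The summed level of all 38 members was 3035 ± 252 CPM in chow, 3346 ± 174 in STAM and 3370 ± 130 with the inhibitor (SD, n = 3 each), and the groups overlapped. Without Slc25a47 the sums ran from 2302 to 2598 CPM in chow, 2420 to 2655 in STAM and 2541 to 2556 with the inhibitor.

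**Figure D1:**
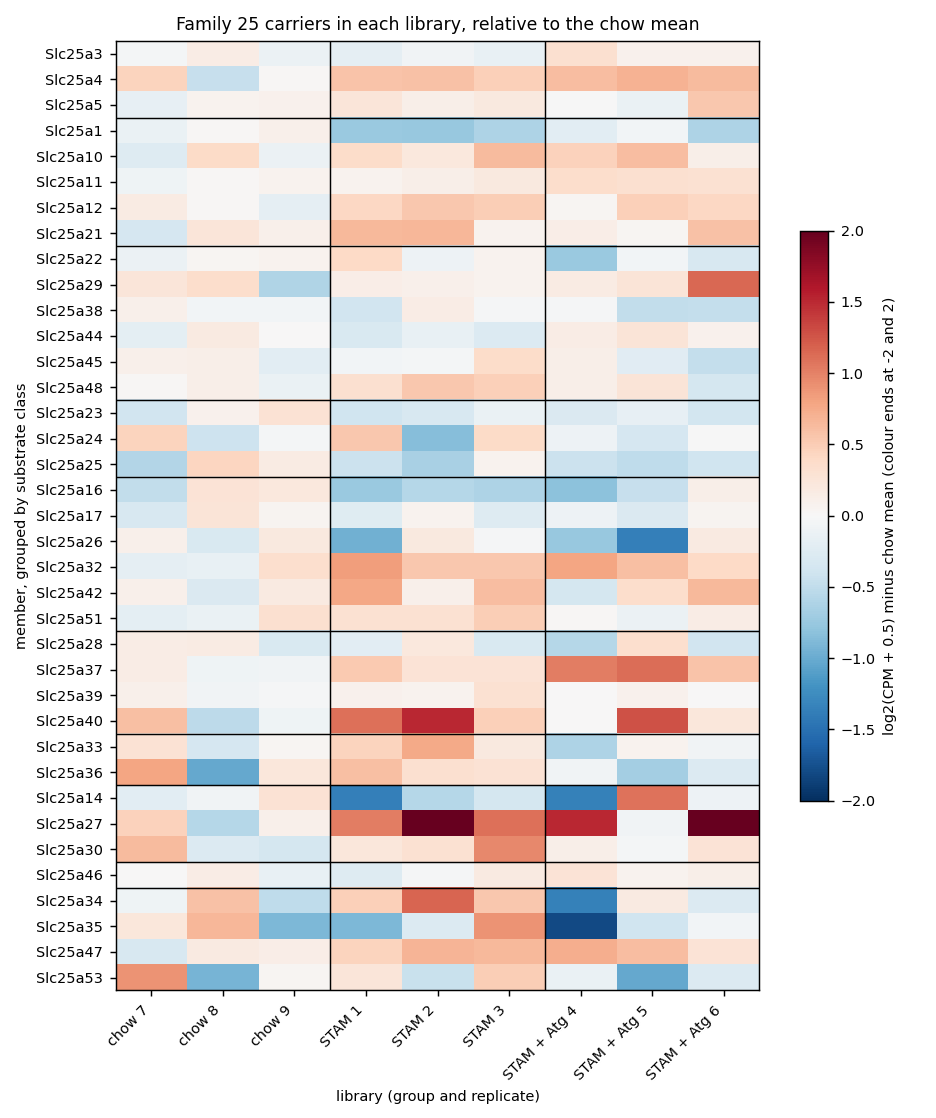
Level of 37 of the 38 members in each of the 9 libraries, as log2(CPM + 0.5) minus the mean of the 3 chow libraries, with colour from -2 to 2. Rows are grouped by substrate class and black lines part the classes and the groups; Slc25a1 is lower in all 3 STAM libraries, Slc25a37 is higher in all 3 STAM + Atglistatin libraries, and the strongest colours lie in rows of few counts such as Slc25a27, with 92 counts in all.

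RefSeq's table of promoters on GRCm38.p6 held windows of 250 bases before to 50 bases after the annotated start for 29 of the 38 members. Of the 4 members called in any comparison, it held Slc25a1 and Slc25a47, which are shown because the first fell and the second rose in STAM. Capitals mark CACGTG, an E-box, the only match in these windows among 4 motifs searched on both strands: CACGTG, TGACGTCA (the cyclic AMP response element), a sterol response element and a direct repeat spaced by 1 base that PPARa can bind. No matches overlapped. The Slc25a1 window lies at chr16:17928170-17928469 on the minus strand and that of Slc25a47 at chr12:108850879-108851178 on the plus strand.
Slc25a1: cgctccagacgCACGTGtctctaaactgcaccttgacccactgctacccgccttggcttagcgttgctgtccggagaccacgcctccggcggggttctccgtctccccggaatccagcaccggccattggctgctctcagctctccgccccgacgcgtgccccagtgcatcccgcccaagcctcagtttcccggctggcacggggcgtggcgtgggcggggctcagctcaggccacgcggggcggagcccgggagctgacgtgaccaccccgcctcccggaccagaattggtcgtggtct
Slc25a47: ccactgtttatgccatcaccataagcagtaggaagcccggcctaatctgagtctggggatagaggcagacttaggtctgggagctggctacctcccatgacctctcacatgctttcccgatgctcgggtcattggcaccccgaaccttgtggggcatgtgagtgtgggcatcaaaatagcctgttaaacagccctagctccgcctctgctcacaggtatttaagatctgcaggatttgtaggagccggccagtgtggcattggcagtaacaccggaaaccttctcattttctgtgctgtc

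The E-box letters begin 239 bases before the start of Slc25a1 and stood in 7.15% of all 32851 windows in the table. They were found for 4 of the 29 members, Slc25a1, Slc25a14, Slc25a33 and Slc25a36. The 29 members had 38 windows, so counts of members and shares of windows are in unlike units. TGACGTCA stood in 1.79% of windows and was found for Slc25a25 and Slc25a36. The sterol response element and the direct repeat stood in 0.234% and 0.0396% of windows and were found for 0 members. Sites of 3 of these members are shown with 10 bases on either side: Slc25a33 and Slc25a36 carry the same kind of cargo, and Slc25a25 held a cyclic AMP element but no E-box. Coordinates of their windows are chr2:32424017-32424316 (Slc25a25), chr4:149774218-149774517 (Slc25a33) and chr9:97110992-97111291 (Slc25a36), all on the minus strand.
Slc25a25: ctgcaagcagTGACGTCAgtcctgatct
Slc25a33: cggcctccgcCACGTGacggccgcgc
Slc25a36, E-box: cctgggcgatCACGTGaaagaggcgt
Slc25a36, cyclic AMP element: gcgaacctcgTGACGTCAcgcggcctaa

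Slc25a1 exports citrate from mitochondria to the cytosol, where it is cut into acetyl-CoA for fatty acid and sterol synthesis. The gene (ENSMUSG00000003528) lies on chromosome 16 from 17925223 to 17928219, minus strand, of GRCm38 and overlaps no other annotated gene. It was at 120, 134 and 142 CPM in the chow libraries, 78.9, 77.8 and 85.3 in STAM, and 114, 127 and 86.1 in STAM + Atglistatin. All 3 STAM libraries lay below every chow library and below every inhibitor library, while the inhibitor and chow groups overlapped. The log2 fold change in STAM against chow was -0.71 ± 0.14 (edgeR adjusted p = 0.00653), a 1.64-fold drop, and it passed in all 15 alternative settings, with adjusted p from 0.000134 to 0.0483. STAM + Atglistatin against STAM gave 0.43 ± 0.14 (edgeR adjusted p = 0.205) and did not pass. Without STAM + Atglistatin replicate 6, the lowest of its group, it was 0.58 (edgeR adjusted p = 0.0451).

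**Figure D2:**
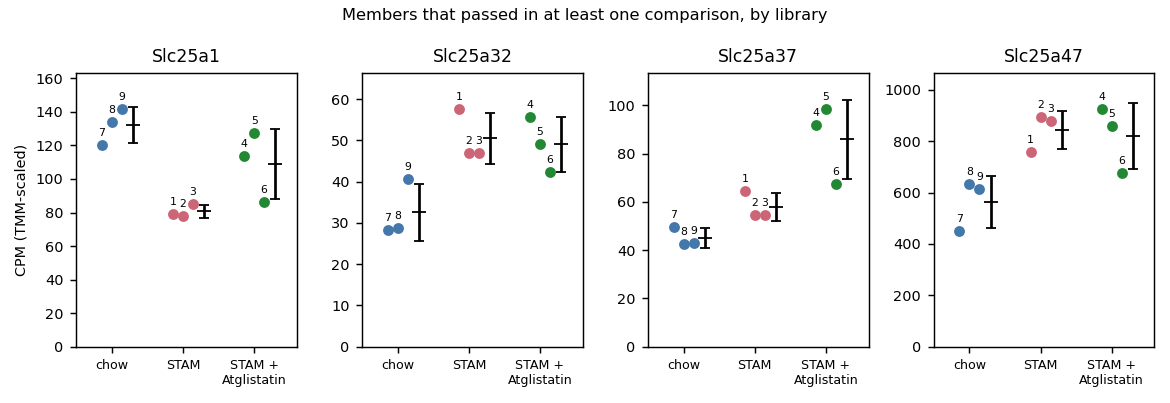
TMM-scaled CPM of the 4 members that passed in at least one comparison, with 1 point per library labelled by its replicate number and the mean ± SD of 3 libraries beside each group; every axis starts at 0. Slc25a1 is lowest in STAM, at 77.8 to 85.3 CPM, Slc25a37 is highest in STAM + Atglistatin, at 67.2 to 98.6 CPM, and Slc25a32 and Slc25a47 are higher in the STAM libraries than in any chow library.

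Slc25a1 was set beside a list of genes of citrate metabolism and the fatty acid synthesis it feeds. Of these 9 genes, 7 fell and 1 rose in STAM against chow (median log2 fold change -0.97, beside -0.0013 over all genes), and 7 rose and 0 fell with the inhibitor against STAM (median 1.31, beside -0.00092). With the inhibitor against chow, 2 rose and 2 fell (median 0.094, beside -0.0042). Those that fell were Scd1, at -1.47 ± 0.20, and Acacb, at -0.72 ± 0.19 (edgeR adjusted p = 0.000177 and 0.0404). In STAM against chow, the genes of this list with the smallest p were Scd1, Acacb and Fasn. Acly and Cs are named for their place next to the carrier, after their values were seen. Acly, which cuts exported citrate, went from 272 ± 36.5 CPM in chow to 123 ± 27.2 in STAM and 285 ± 30.4 with the inhibitor (SD, n = 3 each), differences of -1.14 ± 0.16 and then 1.21 ± 0.16 on the log2 scale (edgeR adjusted p = 0.000167 and 0.000143). Cs, which makes citrate in the matrix, fell by 0.57 ± 0.13 in STAM against chow (edgeR adjusted p = 0.0126). The list was drawn up with earlier results of these data known, so its direction is a description.

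**Figure D3:**
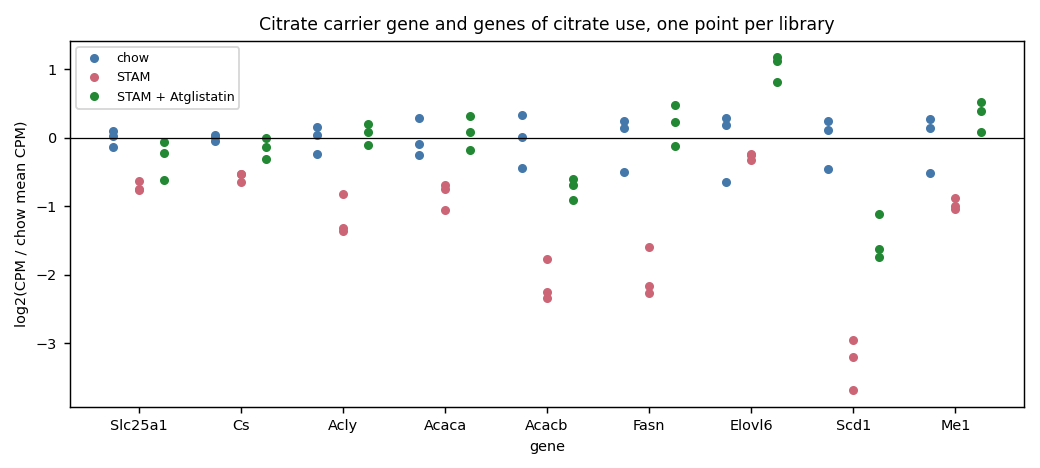
Level of Slc25a1 and of 8 of the 9 genes of citrate metabolism and fatty acid synthesis in each library, as log2 of CPM over the mean CPM of the 3 chow libraries, with chow in blue, STAM in red and STAM + Atglistatin in green. Slc25a1, Cs, Acly, Acaca, Acacb, Fasn, Scd1 and Me1 lie below the chow libraries in all 3 STAM libraries.

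None of the other 4 carriers of organic acids and aspartate passed in any comparison, and the mean of each was higher in STAM than in chow. Slc25a10, the dicarboxylate carrier, which swaps malate or succinate for phosphate, was at 58.8, 91.9 and 64.9 CPM in chow, 91.3, 81.8 and 110 in STAM and 97.6, 109 and 76.9 with the inhibitor. Its chow library of 91.9 CPM lay among the others, and the log2 fold change in STAM against chow was 0.39 ± 0.18 (edgeR adjusted p = 0.312). Slc25a11, the oxoglutarate-malate carrier, was at 79.4, 86.2 and 88.8 CPM in chow, 89.1, 92.2 and 97.4 in STAM and 108, 106 and 105 with the inhibitor, so that the groups did not overlap in any comparison. Its difference was small, 0.33 ± 0.12 in STAM + Atglistatin against chow (edgeR adjusted p = 0.171), and of the 15 settings passed only with library totals in place of TMM (0.41, edgeR adjusted p = 0.0492); the highest of those p was 0.341. Slc25a12, an aspartate-glutamate carrier of the malate-aspartate shuttle, ran from 14.8 to 18.8 CPM in chow libraries and 22.6 to 24.8 in those of STAM, higher by 0.49 ± 0.19 on the log2 scale (edgeR adjusted p = 0.212). Slc25a21, a carrier of oxodicarboxylates, had a log2 fold change of 0.49 ± 0.26 and did not pass either. Of 6 genes of the malate-aspartate and glycerol phosphate shuttles, 1 rose in STAM against chow, 1 fell with the inhibitor against STAM and 1 rose with the inhibitor against chow. Got1, the cytosolic aspartate aminotransferase, was the first and the second of these, at 0.57 ± 0.15 and -0.59 ± 0.15 (edgeR adjusted p = 0.0310 and 0.0445), and Mdh2, the matrix malate dehydrogenase, was the third, at 0.43 ± 0.11 (edgeR adjusted p = 0.0407).

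Slc25a37 encodes mitoferrin-1, which brings iron into mitochondria for haem and iron-sulfur clusters. The gene (ENSMUSG00000034248, chromosome 14, 69241848 to 69285112, minus strand) overlaps Gm20236 on its own strand and 3 predicted genes on the other. Whether the counting used strand is not stated in the labels. It was at 49.7, 42.5 and 42.9 CPM in chow, 64.6, 54.5 and 54.5 in STAM and 91.9, 98.6 and 67.2 in STAM + Atglistatin, and the 3 groups did not overlap. It rose by 0.93 ± 0.16 in STAM + Atglistatin against chow (edgeR adjusted p = 0.00156), a 1.9-fold difference that passed in all 15 alternative settings with adjusted p from 1.06e-06 to 0.0163. STAM + Atglistatin against STAM gave 0.57 ± 0.16 (edgeR adjusted p = 0.0880). That difference passed in 5 of 15 settings: with no filter on low counts (edgeR adjusted p = 0.0254), with DESeq2 (0.0394), with limma-voom (0.0363), without STAM + Atglistatin replicate 6 (0.0192) and without chow replicate 7 (0.0454). The authors' deposited table gives 0.52 for it, with an adjusted p of 0.0403. STAM against chow gave 0.36 ± 0.16 (edgeR adjusted p = 0.294).

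Slc25a28, mitoferrin-2, carries the same cargo and did not pass in any comparison. It was at 14.9 to 20.8 CPM in chow, 15.0 to 21.6 in STAM and 12.3 to 23.6 in STAM + Atglistatin, with a log2 fold change of -0.18 in STAM + Atglistatin against chow and a 95% interval from -0.71 to 0.35. The share of Slc25a37 in the summed CPM of both mitoferrins was 67.1 to 74.2% in chow, 71.6 to 80.2% in STAM and 80.7 to 88.2% with the inhibitor. Mitoferrin-1 is best known from red cell precursors, so erythroid markers were set beside it. The summed level of 7 such markers, mostly globin RNA, was 689 to 999 CPM in chow, 643 to 745 in STAM and 461 to 788 with the inhibitor, and its part in the result was not tested. Of the 5 of these markers that were tested, 0 rose and 1 fell in STAM + Atglistatin against chow. The latter was Alas2, the erythroid enzyme that starts haem synthesis, at -1.32 ± 0.24 (edgeR adjusted p = 0.00294). Of 9 genes of haem and iron-sulfur cluster synthesis, 2 rose and 0 fell in STAM against chow. With the inhibitor 0 passed against STAM, and 2 rose and 1 fell against chow. The gene that fell was again Alas2, which is on both lists. Alas1, the enzyme that starts haem synthesis in hepatocytes, rose by 0.82 ± 0.16 in STAM and 1.01 ± 0.16 in STAM + Atglistatin, each against chow (edgeR adjusted p = 0.00398 and 0.000706), and Glrx5, which hands on iron-sulfur clusters, by 0.51 ± 0.13 and 0.52 ± 0.13 (edgeR adjusted p = 0.0303 and 0.0263). The glutathione carrier gene Slc25a39 was at 336 to 434 CPM over all libraries, and its relative Slc25a40 had 224 counts in all; neither passed in any comparison.

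Slc25a47 is expressed mainly in hepatocytes, and its cargo is not settled. The gene (ENSMUSG00000048856, chromosome 12, 108836046 to 108856815, plus strand) holds the microRNA gene Mir345 on its own strand. It was at 449, 633 and 613 CPM in chow, 759, 896 and 878 in STAM and 926, 858 and 678 in STAM + Atglistatin. Every library of either STAM group lay above every chow library, and the STAM groups overlapped each other. The log2 fold change was 0.58 ± 0.15 in STAM (edgeR adjusted p = 0.0293) and 0.54 ± 0.15 in STAM + Atglistatin (edgeR adjusted p = 0.0447), each against chow, which are 1.5-fold and 1.45-fold differences. STAM + Atglistatin against STAM gave -0.04, with a 95% interval from -0.35 to 0.26. The STAM call was lost without chow replicate 7 (0.44, edgeR adjusted p = 0.0548) and without STAM replicate 1 (0.0504), 2 (0.134) or 3 (0.104), and the lowest of the 15 settings was 0.000425. The call with the inhibitor held in 6 of 15 settings, with adjusted p from 0.00161 to 0.207; it was lost with only those groups fitted (0.0945) and without any library but STAM + Atglistatin replicate 6, from 0.0528 without chow replicate 8 to 0.207 without STAM + Atglistatin replicate 4. These fits hold fewer samples than the fit of all 9. The authors' deposited table gives adjusted p of 0.00317 and 0.00835 for these comparisons.

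Slc25a32 carries folate, and on other evidence FAD, into the matrix. The gene (ENSMUSG00000022299, chromosome 15, 39091231 to 39112716, minus strand) overlaps no other annotated gene. It was at 28.4, 28.9 and 40.6 CPM in chow, 57.6, 46.9 and 47.0 in STAM and 55.7, 49.1 and 42.3 in STAM + Atglistatin. Every library of both STAM groups lay above the highest chow library, by the least margin between 42.3 and 40.6 CPM. The log2 fold change was 0.64 ± 0.17 in STAM against chow (edgeR adjusted p = 0.0467), a 1.56-fold rise, and 0.59 ± 0.17 in STAM + Atglistatin against chow (edgeR adjusted p = 0.0664), which did not pass. The STAM call lay near the threshold and held in 7 of 15 settings. It was lost with only those groups fitted (edgeR adjusted p = 0.0612) and without chow replicate 7 (0.107) or 8 (0.192), STAM replicate 1 (0.241), 2 (0.0898) or 3 (0.0839), or STAM + Atglistatin replicate 4 (0.0530) or 5 (0.0706), and its lowest value was 0.0111. With the inhibitor against chow it passed in 4 settings: library totals (0.0293), no filter on low counts (0.0242), DESeq2 (0.0373) and without chow replicate 9 (0.0267, with a log2 fold change of 0.78). The authors' deposited table gives adjusted p of 0.0247 for STAM and 0.0460 for STAM + Atglistatin, each against chow. STAM + Atglistatin against STAM gave -0.04, with a 95% interval from -0.40 to 0.31.

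The other carriers of coenzymes went in both directions without passing. Slc25a42, which takes coenzyme A into the matrix, ran from 16.2 to 22.7 CPM in chow and, overlapping it, from 21.5 to 34.6 in STAM, a difference of 0.52 ± 0.25 on the log2 scale (edgeR adjusted p = 0.337). Slc25a16, also linked to coenzyme A, was at 17.2, 29.5 and 28 CPM in chow and at 14.4, 16.2 and 15.6 CPM in STAM libraries, which differed by -0.69 ± 0.25 on the log2 scale (edgeR adjusted p = 0.173). The share of Slc25a42 in the sum of these genes was 35.5 to 55.6% in chow, 57.1 to 70.7% in STAM and 53.4 to 59.6% with the inhibitor. STAM and chow did not overlap, with 55.6 and 57.1% as the nearest values. Shares taken for Slc25a5 with Slc25a4, Slc25a25 with Slc25a23, Slc25a39 with Slc25a40 and Slc25a33 with Slc25a36 overlapped in every comparison. How often such shares part the groups over all genes was not tested. Slc25a17, the peroxisomal carrier of coenzyme A and related cofactors, was at 43.9 to 66.1 CPM over all libraries, with a 95% interval of the log2 fold change in STAM against chow from -0.51 to 0.20. Slc25a51, the importer of NAD+, was at 93.1, 97.2 and 134 CPM in chow, 131, 132 and 150 in STAM and 109, 98.3 and 119 in STAM + Atglistatin. Its STAM libraries lay above those with the inhibitor, but neither 0.35 ± 0.15 in STAM against chow nor -0.34 ± 0.15 in STAM + Atglistatin against STAM passed (edgeR adjusted p = 0.253 and 0.403). Of 6 genes of coenzyme A synthesis, 0 passed in STAM against chow or with the inhibitor against STAM, and 1 rose with the inhibitor against chow: Ppcs, which joins cysteine to phosphopantothenate, by 0.65 ± 0.15 (edgeR adjusted p = 0.0182).

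The carriers that serve ATP synthesis itself did not pass in any comparison. Slc25a5 and Slc25a4 encode the ADP/ATP carriers, which trade matrix ATP for cytosolic ADP, and Slc25a3 brings in the phosphate. Slc25a5 was at 215, 251 and 254 CPM in chow, 283, 260 and 273 in STAM and 239, 219 and 348 in STAM + Atglistatin, and the STAM libraries lay above those of chow by 0.18 ± 0.15 on the log2 scale (edgeR adjusted p = 0.666). It has a processed copy in the genome, Slc25a5-ps, and its counts are uncertain to the extent that reads fit both. Slc25a4 was at 11.9, 6.14 and 8.85 CPM in chow, 13.1, 13.2 and 12.2 in STAM and 13.6, 14.4 and 13.7 in STAM + Atglistatin. Its 3 groups did not overlap, and the log2 fold change was 0.51 ± 0.25 in STAM and 0.63 ± 0.25 in STAM + Atglistatin, each against chow (edgeR adjusted p = 0.365 and 0.231). Slc25a3 was at 391 to 420 CPM in STAM and 468 to 556 with the inhibitor, a difference of 0.30 ± 0.12 (edgeR adjusted p = 0.324), with chow between and among them at 410 to 491.

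**Figure D4:**
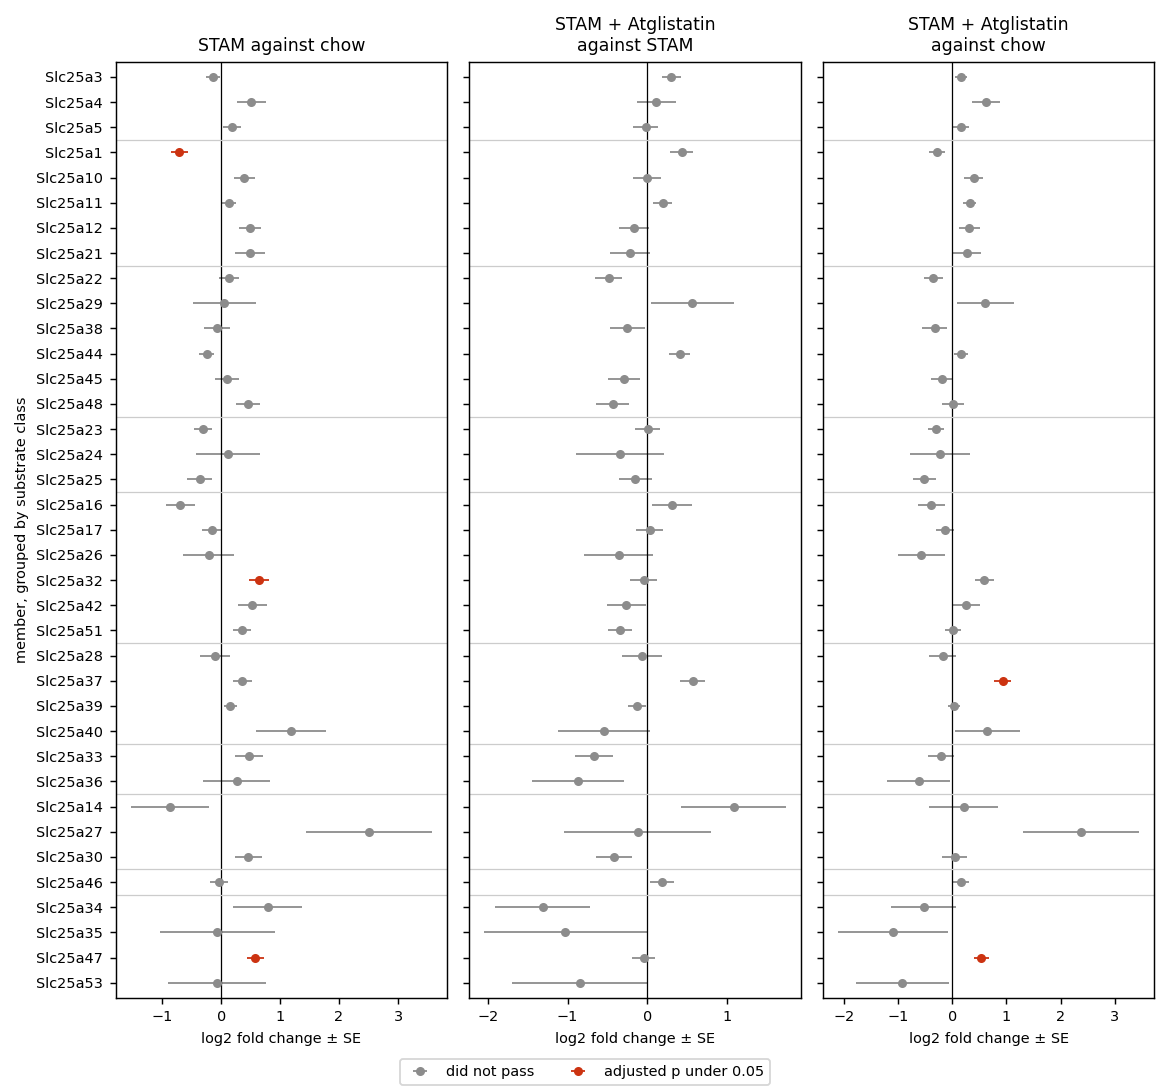
Log2 fold change ± SE of 37 of the 38 members in the 3 comparisons, with members grouped by substrate class between grey lines and those with an adjusted p under 0.05 in red. The red points are Slc25a1, Slc25a32 and Slc25a47 in STAM against chow, none in STAM + Atglistatin against STAM, and Slc25a37 and Slc25a47 in STAM + Atglistatin against chow; wide bars mark members of few counts.

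None of the 6 carriers of amino acids and related solutes and neither of the 2 carriers of pyrimidine nucleotides passed in any comparison. Slc25a44, which carries branched-chain amino acids, was at 106, 136 and 121 CPM in chow, 97.5, 108 and 100 in STAM and 134, 144 and 128 with the inhibitor. The inhibitor libraries lay above all STAM libraries, by 0.41 ± 0.13 on the log2 scale (unadjusted p = 0.00529, edgeR adjusted p = 0.166). Slc25a22, a glutamate carrier, was at 104, 74.0 and 83.0 CPM in STAM and 47.3, 76.3 and 63.0 with the inhibitor, which overlapped at -0.48 ± 0.17 (edgeR adjusted p = 0.247). Slc25a48, reported to carry choline, was at 20.6 to 24.2 CPM in STAM, above both chow (14.9 to 17.8) and inhibitor libraries (12.7 to 19.7), with edgeR adjusted p of 0.304 and 0.477. Slc25a45 was at 15.8 to 28.8 CPM over all libraries. Slc25a33, the pyrimidine nucleotide carrier shown above with an E-box, was at 19.4, 12.4 and 16.2 CPM in chow, 21.5, 26.9 and 18.1 in STAM and 10.1, 16.7 and 15.0 with the inhibitor. Its inhibitor libraries lay below all STAM libraries, at -0.67 ± 0.24 (edgeR adjusted p = 0.257), and those of its relative Slc25a36, with 216 counts in all, did so as well.

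In STAM + Atglistatin against STAM, 7 members lay higher and 5 lower without overlap of the libraries, which is 18.4% and 13.2% of members, beside 8.56% and 8.45% of all tested genes. In STAM against chow the counts were 9 and 3, or 23.7% and 7.89% of members, beside 10.6% and 10.1% of all genes. In STAM + Atglistatin against chow they were 6 and 0, or 15.8% and 0% of members, beside 9.58% and 9.03%. Since members were chosen with earlier results known, these shares are a description.

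Another 4 members were called against chow when chow replicate 7 was left out, which left only chow replicates 8 and 9. Slc25a16 and Slc25a23 are named here after their values were seen. Slc25a25, an ATP-Mg/phosphate carrier regulated by calcium, was at 121, 247 and 204 CPM in chow replicates 7, 8 and 9, at 136, 116 and 192 in STAM and at 135, 128 and 138 with the inhibitor. Replicate 7 lay among the STAM libraries and the other chow libraries above them all. With all libraries the log2 fold change was -0.36 ± 0.21 in STAM and -0.51 ± 0.21 with the inhibitor, each against chow (edgeR adjusted p = 0.462 and 0.243). Without chow replicate 7 it was -0.61 and -0.76 (edgeR adjusted p = 0.0302 and 0.00577), where the highest p over the alternatives were 0.897 and 0.652. With no filter on low counts the second also passed (edgeR adjusted p = 0.0104), but at an SE of 0.14 there, beside 0.21 with the filter. Its relative Slc25a23 was at 146, 202 and 232 CPM in chow, 143 to 173 in STAM and 146 to 170 with the inhibitor. With all libraries its log2 fold change was -0.30 ± 0.15 in both comparisons against chow (edgeR adjusted p = 0.378 and 0.372). Without chow replicate 7 it was -0.47 in both (edgeR adjusted p = 0.0362 and 0.0365). No other of the 15 settings passed, with adjusted p up to 0.788 and 0.793 over the alternatives. Slc25a16, described above, was at -0.90 in STAM against chow without that library (edgeR adjusted p = 0.0301). It passed in no other setting, with adjusted p up to 0.461 over the alternatives. Slc25a30, a relative of the uncoupling proteins, was at 94.8, 50.5 and 47.7 CPM in chow replicates 7, 8 and 9 and at 72.0, 75.3 and 120 in STAM. For this member replicate 7 was the high chow library, and the log2 fold change went from 0.46 ± 0.23 (edgeR adjusted p = 0.381) to 0.86 without it (edgeR adjusted p = 0.00825). No other setting passed, with adjusted p up to 0.843 over the alternatives. With another library left out, the log2 fold change was as low as 0.19. Without chow replicate 7, STAM against chow had 1 of 38 members called higher and 4 lower, beside 2.68% and 2.86% of all tested genes. In STAM + Atglistatin against chow 1 was called higher and 2 lower, beside 2.88% and 2.91%. Calls over all genes rose as well without that library, from 499 to 724 and from 516 to 757.

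**Figure D5:**
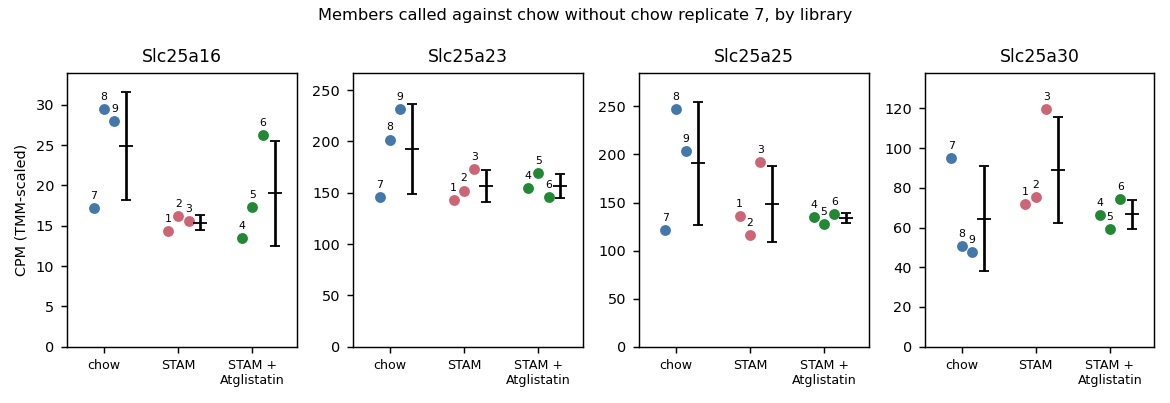
TMM-scaled CPM of the 4 members that were called against chow once chow replicate 7 was left out, with 1 point per library labelled by its replicate number and the mean ± SD of 3 libraries beside each group; every axis starts at 0. Chow replicate 7 is the lowest chow library for Slc25a16, Slc25a23 and Slc25a25 and the highest for Slc25a30, at 94.8 CPM against 50.5 and 47.7.

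Members of few counts had the largest fitted values and gave little information at this depth. Slc25a27, a relative of the uncoupling proteins best known from brain, had 7 counts over the chow libraries, 42 over STAM and 43 over STAM + Atglistatin, with log2 fold changes of 2.51 ± 1.07 and 2.38 ± 1.07 against chow (edgeR adjusted p = 0.275 and 0.304). Slc25a34 had 62, 110 and 49 counts, with -1.32 ± 0.59 in STAM + Atglistatin against STAM (edgeR adjusted p = 0.448) and no overlap between those groups. Slc25a14, Slc25a24, Slc25a26, Slc25a29, Slc25a35, Slc25a36, Slc25a40 and Slc25a53 had 91 to 463 counts in all and did not pass in any comparison, and neither did Slc25a38 and Slc25a46, which were better covered with 1166 and 4010.

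The family holds 4 pairs of genes that are neighbours on a chromosome with no protein-coding gene between them in GENCODE M21. In 3 of the pairs one gene was among the rows under 10 counts: Slc25a41, with 0 counts, lies 2056 bases from Slc25a23, Slc25a54, with 0, lies 6461 bases from Slc25a24, and Slc25a43, with 5, lies 18448 bases from Slc25a5. All 5 counts of Slc25a43 came from STAM + Atglistatin replicate 6. In the remaining pair Slc25a29, a carrier of basic amino acids, lies 162 bases from the first annotated base of Slc25a47 and runs in the opposite direction, while RefSeq's start of Slc25a47, used for the window shown above, lies inside the GENCODE gene. The mean level of Slc25a29 was 2.37 ± 0.910 CPM in chow libraries and 2.47 ± 0.0697 CPM in STAM (SD, n = 3 each), with a 95% interval of the log2 fold change from -1.08 to 1.17 that is too wide to set beside the rise of Slc25a47. The other rows under 10 counts were Slc25a18 with 0, Slc25a31 with 1 and Slc25a2 with 8, all 8 in chow replicates 8 and 9.

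Other transport and import genes of mitochondria were mostly without calls. Of 23 tested transporters outside the numbered family, 2 rose and 0 fell in STAM against chow, 0 passed in STAM + Atglistatin against STAM, and 2 rose and 0 fell in STAM + Atglistatin against chow. Ucp2, an uncoupling protein of the same protein family that carries its own name, rose most. It was at 18.9, 10.7 and 14.5 CPM in chow, 47.6, 35.1 and 38.0 in STAM and 55.6, 55.9 and 46.3 in STAM + Atglistatin, with log2 fold changes of 1.45 ± 0.20 and 1.83 ± 0.20 against chow (edgeR adjusted p = 0.000220 and 1.61e-05) and no overlap with chow. The summed level of 6 markers of Kupffer cells and other macrophages, which express Ucp2, was 195 to 259 CPM in chow, 252 to 295 in STAM and 229 to 313 with the inhibitor, and their part in its rise was not tested. The second call in STAM was Slc8b1, the mitochondrial sodium-calcium exchanger (1.22 ± 0.32, edgeR adjusted p = 0.0361), and with the inhibitor Mpc2, a subunit of the pyruvate carrier (0.56 ± 0.14, edgeR adjusted p = 0.0328). Of 15 tested genes of the machinery that imports carriers and inserts them into the inner membrane, 0 passed edgeR in any comparison. Of 6 regulators of mitochondrial gene expression, 1 rose in each comparison against chow: Esrra, a nuclear receptor, by 0.82 ± 0.20 and 0.84 ± 0.20 (edgeR adjusted p = 0.0254 and 0.0208).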

How the data were processed

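Liver RNA of 9 libraries was analysed, 3 in each of 3 groups. Nothing in the labels says that each library is a separate mouse, so p-values measure only the spread between these libraries. Reads were aligned with STAR to GRCm38, per the submitters' processing notes; STAR's version, the counting tool, annotation and strand setting were not given in the sources used here. Raw counts per gene, as deposited by the authors, were the input. The authors' deposited table also holds log2 fold changes, p-values and adjusted p-values, quoted where named, and standard errors (a score not used).

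The 7 ribosomal RNA entries (0.260 to 0.529% of counts) were left out. Fits used edgeR 4.0.16 in R 4.3.3 (TMM, filterByExpr, quasi-likelihood, one fit of all 9 libraries) with adjustment over 12660 genes; the common biological coefficient of variation was 0.236. The SE is the log2 fold change over the square root of the F statistic, and intervals are 95%. The 15 alternatives were RLE size factors, library totals, no low-count filter, DESeq2 1.42.0, limma 3.58.1 voom with sample weights, only the groups compared, and leaving out each of 9 libraries. With no low-count filter, p was far lower at a nearly equal log2 fold change. The SE was nearly equal for Slc25a1 in STAM against chow but smaller for Slc25a47 there (0.129, beside 0.146 with the filter) and for Slc25a25. For Slc25a1 in STAM against chow, edgeR's unadjusted p was 1.8e-06 with no filter, beside 0.000123 with it. The lowest adjusted p quoted for Slc25a1, Slc25a32, Slc25a37 and Slc25a47 against chow came from that setting and should be read with caution. The counts of settings passed for these members include that setting. The edgeR test was checked on simulated data. Those counts were drawn with the fit's own estimates of spread and library size, so the check cannot show the effect of an outlying library. Gene positions come from GENCODE M21 and promoters from RefSeq.

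The naming rule took members that passed in any comparison and a set chosen by role, 20 in all, and up to 3 genes of smallest p from each other list. Members named beyond it, and Acly and Cs, were chosen after their values were seen. Some results of single genes are not reported here, in text or figures. Members, lists and rules were chosen with earlier results of these data known.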

Additional observations from a re-analysis of the deposited data

How the results depend on the processing

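No paired analysis was possible because the titles number the libraries 1 to 9 across the study and no groups share a number. Of 900 values for 20 named members in 3 comparisons under 15 alternatives, 833 kept direction and side of the threshold, 21 lost a call, 15 gained one and 31 turned sign. In STAM against chow, 2 members were higher and 1 lower; with only the groups compared 1 was higher, and over single libraries left out 0 to 2 were higher and 1 to 4 lower. Calls over all genes were 499, 462 with only those groups, and 291 to 724 without single libraries. The members' median log2 fold change was 0.23 with library totals and 0.13 to 0.23 without single libraries. In STAM + Atglistatin against STAM, 1 was higher with no low-count filter, DESeq2 or limma-voom, and 0 to 2 without single libraries. Calls over all genes were 226, then 392, 309 and 293, and 131 to 332 without single libraries. In STAM + Atglistatin against chow, 4 were higher and the median was 0.11 with library totals, 1 was higher with only the groups compared, 1 was lower with no low-count filter, and without single libraries 1 to 2 were higher and 0 to 2 lower. Calls over all genes were 516, 543 with library totals, 374 with only the groups compared, 758 with no filter, and 309 to 757 without single libraries. Library totals moved the median of all genes by 0.087 in STAM against chow and 0.082 in STAM + Atglistatin against chow. The causes of these changes were not tested.

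Among the 20 named members, these changed sign. For STAM + Atglistatin against STAM, Slc25a10 was at -0.00072 with RLE factors, -0.0011 with no filter, -0.00079 with DESeq2, -0.0017 with only the groups compared and -0.11 to 0.13 without single libraries. Ranges without single libraries were -0.25 to 0.11 for Slc25a5, -0.058 to 0.15 for Slc25a17, -0.30 to 0.083 for Slc25a25, -0.15 to 0.061 for Slc25a32 and -0.14 to 0.079 for Slc25a47. For STAM against chow they were -0.011 to 0.24 for Slc25a22 and -0.055 to 0.17 for Slc25a45. For STAM + Atglistatin against chow, Slc25a51 was at -0.047 with limma-voom and -0.089 to 0.19 without single libraries, Slc25a5 at -0.070 to 0.29, Slc25a17 at -0.28 to 0.015 and Slc25a30 at -0.13 to 0.44. The 10 members with 463 counts or fewer in all had log2 standard errors of at least 0.43, too wide to show differences of the size called in other members.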
